A study of Homo sapiens with 4 samples.

Results

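CHST8, STX11, UPP1 and RFPL4A are 4 human genes that were chosen by their newly made RNA being higher in both T4A libraries than in both WT libraries of a TT-seq experiment. They are 4 of the 60708 genes of the count table. Around them, 68 further genes lay within 300 kb by the positions in the table, and these neighbors were chosen by position alone. The question asked of each gene was whether the higher level was of the gene or of its whole locus. For CHST8 the tested neighbors did not share the size of the difference, and the same held for the well-counted neighbors of STX11. At UPP1 most tested neighbors had a difference as large or larger, from few counts, and at RFPL4A the tested genes downstream all had positive differences while most of those upstream had negative ones, none past the test.

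In TT-seq, RNA made during a short pulse of 4-thiouridine, here of 20 min, is pulled down after fragmentation and sequenced, introns included. The cells were HEK293, an established human embryonic kidney line, carrying an RPB1 degron, a tag on the largest subunit of RNA polymerase II that lets auxin trigger its loss. Plasmids for RPB1 with a 52X WT C-terminal domain (CTD), or with a 52X CTD in which the fourth residue of every repeat, threonine, is alanine (52X T4A), were transfected transiently, and 48 h later auxin was added for 48 h. All 4 libraries share the degron genotype, the auxin and a transfected RPB1, so that the comparison is of 2 T4A with 2 WT libraries, with no library from cells without auxin or plasmid. Nothing in the labels says that the replicates were separate cultures, so p-values measure only the spread between these libraries, which may be technical. Transient transfection does not reach every cell alike, and fewer cells making an RNA cannot be told apart from less RNA per cell.

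The counts sum to between 33188536 and 45605027 per library. T4A replicate 1 stood apart: its log2 CPM (counts scaled to the library total) over all tested genes correlated at 0.974 and 0.975 with the WT libraries and at 0.979 with T4A replicate 2, whereas T4A replicate 2 correlated at 0.988 and 0.989 with the WT libraries and the WT libraries at 0.991 with each other. POLR2A, the gene of RPB1, had 9640 and 8720 normalized CPM in WT and 7490 and 8080 in T4A, a log2 difference of −0.24 (SE 0.25, edgeR adjusted p = 0.659). RNA of the endogenous gene and of the plasmid cannot be told apart in these counts, and the mutation itself is not visible in them. Of 8 markers of HEK293 cells, 6 passed the filter on low counts, with summed levels between 467 and 559 CPM, while NEFM and INA were near 0. Markers were also summed for the cells in which 3 of the genes are best known. Those of blood cells summed to between 1.53 and 2.38 CPM, those of the pituitary to at most 0.179 CPM with GH1 at 0, and those of the oocyte to between 18.6 and 20.2 CPM, mostly from ZP3.

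The 4 genes have no common function. CHST8 is a sulfotransferase of the Golgi that adds sulfate to terminal N-acetylgalactosamine on glycoproteins, and it is known for marking pituitary hormones such as lutropin. STX11 is a syntaxin, a SNARE protein of membrane fusion, needed by natural killer cells and cytotoxic T cells to release their granules. UPP1 is a uridine phosphorylase, which splits uridine into uracil and a ribose phosphate so that both can be reused. RFPL4A is a RING finger protein of the ret finger protein-like family and is known from oocytes.

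The promoters of the 4 genes are shown because they differ as much as the functions do. Each is 250 bases before and 50 after a RefSeq start site on the plus strand of GRCh38.p14, read 5′ to 3′, with capitals marking any match, on either strand, to a TATA box (TATAAA), a GC box (GGGCGG), an AP-1 site (TGAGTCA) or a CCAAT box (CCAAT). The windows are chr19:33621703-33622002 for CHST8, chr6:144150267-144150566 for STX11, chr7:48088454-48088753 for UPP1, chr19:55758847-55759146 for RFPL4A and chr19:55768868-55769167 for RFPL4AL1, the near copy of RFPL4A beside it. For CHST8 2 and for UPP1 3 RefSeq promoters were listed, and the one whose start site is nearest the start in the table is shown.
CHST8: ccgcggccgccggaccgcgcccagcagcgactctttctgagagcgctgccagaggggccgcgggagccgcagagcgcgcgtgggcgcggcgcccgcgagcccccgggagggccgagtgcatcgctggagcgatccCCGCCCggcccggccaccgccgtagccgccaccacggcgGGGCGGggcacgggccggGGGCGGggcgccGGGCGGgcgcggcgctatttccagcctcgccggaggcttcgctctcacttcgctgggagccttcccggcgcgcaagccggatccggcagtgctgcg
STX11: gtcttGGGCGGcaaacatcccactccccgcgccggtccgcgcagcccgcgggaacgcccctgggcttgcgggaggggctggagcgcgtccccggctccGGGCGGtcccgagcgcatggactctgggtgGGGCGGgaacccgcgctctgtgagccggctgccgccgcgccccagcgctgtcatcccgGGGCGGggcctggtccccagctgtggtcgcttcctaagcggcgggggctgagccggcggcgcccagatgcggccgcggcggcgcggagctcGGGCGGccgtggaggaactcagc
UPP1: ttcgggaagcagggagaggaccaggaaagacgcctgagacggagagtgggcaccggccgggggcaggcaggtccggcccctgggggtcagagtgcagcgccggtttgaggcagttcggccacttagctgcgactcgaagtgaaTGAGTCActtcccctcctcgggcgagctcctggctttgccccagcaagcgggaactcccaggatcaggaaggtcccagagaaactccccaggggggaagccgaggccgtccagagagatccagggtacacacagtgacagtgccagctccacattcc
RFPL4A: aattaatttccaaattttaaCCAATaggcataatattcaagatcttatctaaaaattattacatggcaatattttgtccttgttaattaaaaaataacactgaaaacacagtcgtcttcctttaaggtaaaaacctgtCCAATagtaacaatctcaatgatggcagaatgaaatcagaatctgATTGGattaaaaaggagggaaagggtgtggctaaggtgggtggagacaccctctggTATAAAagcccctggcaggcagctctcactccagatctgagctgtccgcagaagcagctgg
RFPL4AL1: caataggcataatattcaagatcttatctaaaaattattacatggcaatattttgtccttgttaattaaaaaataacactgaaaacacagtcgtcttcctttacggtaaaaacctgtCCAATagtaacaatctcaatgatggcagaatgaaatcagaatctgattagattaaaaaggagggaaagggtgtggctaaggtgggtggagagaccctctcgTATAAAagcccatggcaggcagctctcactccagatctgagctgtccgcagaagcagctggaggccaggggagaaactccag

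CHST8 and STX11 had GC-rich windows, with 51 and 42 CpG dinucleotides, at the 99th and 94.2nd percentile of 35116 RefSeq promoters, whose median was 14. They held 4 and 5 GC boxes, a match that 45% of all promoters hold at least once. The UPP1 window had 16 CpG and no GC box, but 1 AP-1 match at position −107 from the start site, which 4.95% of all promoters hold. RFPL4A had the opposite composition to CHST8, with 2 CpG, a GC content of 38.3% against 80% for CHST8, a TATA box match and 3 CCAAT box matches, held by 11.5% and 34.6% of all promoters. RFPL4AL1 held the same TATA box match and 1 CCAAT box match, and 274 of the 279 aligned bases of both windows were identical. The RFPL4AL1 window begins inside the letters that align to the farthest upstream CCAAT match of RFPL4A, so that match could not be found in it. A match is a description of the letters and not a bound site, and no motif was shared by all 4 genes.

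CHST8 (ENSG00000124302.13) spans 152 kb at chr19:33621953-33773509 on the plus strand. It had 2284 and 2692 counts in WT replicates 1 and 2 and 4301 and 4162 in T4A replicates 1 and 2, or 58.4 and 61.1 normalized CPM in WT and 128 and 120 in T4A. Both T4A libraries were high by about the same amount, and the groups did not overlap. The mean level was 59.7 ± 1.92 CPM in WT and 124 ± 5.48 in T4A (SD, n = 2 each), a ratio of 2.08. The fitted log2 difference was 1.06 (SE 0.09), rank 94 among the 16758 tested genes with a mean of at least 50 counts.

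STX11 (ENSG00000135604.10) spans 41.4 kb at chr6:144150517-144191939 on the plus strand. Its counts were 1477 and 1734 in WT and 1824 and 1826 in T4A, which gives 37.7 and 39.3 normalized CPM in WT and 54.3 and 52.8 in T4A. The libraries of each group lay close together and the groups did not overlap. The ratio of the means was 1.39 (38.5 ± 1.13 CPM in WT, 53.6 ± 1.08 in T4A, SD, n = 2 each), and the log2 difference of 0.48 (SE 0.09) ranked 945 among the same genes.

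UPP1 (ENSG00000183696.14) spans 20.1 kb at chr7:48088628-48108736 on the plus strand. Its counts were 2726 and 2861 in WT and 3310 and 3196 in T4A, or 69.6 and 64.9 normalized CPM in WT and 98.6 and 92.4 in T4A. Again neither T4A library reached down to the WT range. The ratio was 1.42 (67.3 ± 3.35 CPM in WT, 95.5 ± 4.36 in T4A, SD, n = 2 each), with a log2 difference of 0.51 (SE 0.09) and rank 833.

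RFPL4A (ENSG00000223638.3), the shortest of the 4, spans 4.16 kb at chr19:55759014-55763175 on the plus strand. It had 281 and 343 counts in WT and 500 and 418 in T4A, or 7.18 and 7.78 normalized CPM in WT and 14.9 and 12.1 in T4A. The groups did not overlap, but the T4A libraries differed from each other more than for the other genes. The ratio was 1.8 (7.48 ± 0.426 CPM in WT, 13.5 ± 1.98 in T4A, SD, n = 2 each), with a log2 difference of 0.85 (SE 0.17) and rank 209. The counting error of the smallest count was 5.97% for RFPL4A and at most 2.6% for the other 3 genes.

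**Figure D1:**
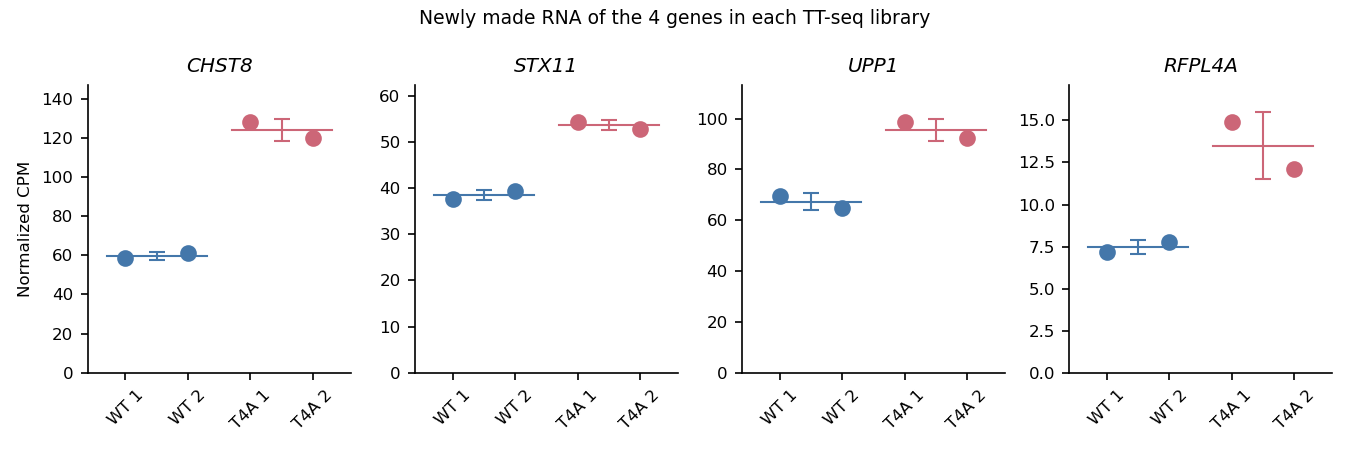
Normalized CPM (vertical axis, from 0) of CHST8, STX11, UPP1 and RFPL4A in the 2 WT (blue) and 2 T4A (red) TT-seq libraries, with lines at the group means and bars of 1 SD. The T4A points lie above the WT points for each gene, with the largest ratio for CHST8 (2.08) and the smallest for STX11 (1.39).

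These differences are what the genes were chosen by, so no p is given for them and nothing is read from their direction. Across all 23321 tested genes, 5788 (24.8%) had both T4A libraries above both WT libraries and 5759 (24.7%) had both below, so that position alone did not set the 4 genes apart. At an adjusted p below 0.05 and a fold change above 1.5, edgeR called 1 gene of 23321 (0.00429%), and 0 without WT replicate 2. The called gene was CHST8, and as its values in these libraries were used to choose it, nothing is read from the call. At an unadjusted p below 0.05 there were 1737 genes (7.45%) higher and 1870 (8.02%) lower in T4A, and DESeq2 called 99 genes at the same threshold. Without T4A replicate 1, which stood apart, the log2 differences were 1.02 for CHST8, 0.46 for STX11, 0.47 for UPP1 and 0.70 for RFPL4A.

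Per kb of span, newly made RNA in WT was most abundant for UPP1, at 3.35 ± 0.167 CPM per kb, followed by RFPL4A at 1.8 ± 0.102, STX11 at 0.93 ± 0.0273 and CHST8 at 0.394 ± 0.0127 (SD, n = 2 each). No adjacent genes in this order overlapped within their spread. Among protein-coding genes, these levels lay at the 89.1st, 75.6th, 57.8th and 40.1st percentile. In T4A the order was the same, at 4.75, 3.24, 1.29 and 0.82 CPM per kb. How much of RFPL4A was counted is uncertain, as many stretches of its transcript occur unchanged in its near copy RFPL4AL1.

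At the CHST8 locus, no tested neighbor had a difference of the size of that of CHST8. Of the 4, 1, CEBPG, had both T4A libraries above both WT libraries (against 24.8% of all tested genes). The table lists 12 genes within 300 kb, of which 5 were at 0 in every library and 4 passed the filter on low counts. The nearest gene downstream, KCTD15, a BTB domain protein 22.4 kb away on the same strand, had 22.3 and 20.1 CPM in WT and 17.5 and 22.5 in T4A. Its groups overlapped, and the log2 difference was −0.09 (SE 0.15, adjusted p = 0.803). On the other side the nearest gene, the pseudogene RPL21P131, was at 0, and PEPD, a dipeptidase that releases proline, 100 kb away on the opposite strand, had 135 and 124 CPM in WT and 114 and 139 in T4A (log2 difference −0.03, SE 0.11, adjusted p = 0.901). PEPD and KCTD15 thus flank CHST8 with levels whose groups overlapped. CEBPG, a bZIP transcription factor 239 kb upstream, had 63 and 67.9 CPM in WT and 86.4 and 78.7 in T4A. Its groups did not overlap and its log2 difference was 0.33 (SE 0.09), with an adjusted p of 0.224 by edgeR and 0.0297 by DESeq2, where its fold change stayed under 1.5.

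The median log2 difference of the 4 tested neighbors of CHST8 was 0.15 (range −0.09 to 0.40), and CHST8 lay 0.91 above it (SD 0.10). For these gaps, here and below, the SD is of the gene less its median neighbor between libraries of a group, pooled over both groups. It leaves out the spread among the neighbors. All listed neighbors together summed to 222 and 213 CPM in WT and to 220 and 242 in T4A. A gene lay above each of its tested neighbors in 2352 of 21777 genes with at least 3 of them (10.8%), and CHST8 was the only 1 of the 4 genes to do so. As CHST8 was chosen for a high value in T4A, that share is no chance level for it. With neighbors within 100 kb the median was −0.09, which is KCTD15 alone at that distance.

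At the STX11 locus, the 4 neighbors with a mean of at least 50 counts had log2 differences from −0.09 to 0.21. Of 15 listed genes, 5 were at 0 and 6 were tested, of which 3 had both T4A libraries above both WT libraries (against 24.8% of all tested genes). The nearest on either side were the pseudogenes TPT1P4 and MRPL42P3, with at most 2 counts in any library. SF3B5, a small protein of the splicing machinery 54.9 kb upstream on the opposite strand, had 8.46 and 9.44 CPM in WT and 9.21 and 9.4 in T4A (log2 difference 0.06, SE 0.16, adjusted p = 0.883). PLAGL1, an imprinted zinc finger gene 85.9 kb upstream, had 45.5 and 52.1 CPM in WT and 52.3 and 47 in T4A (log2 difference 0.02, SE 0.11, adjusted p = 0.93). Neither gene separated the groups.

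Downstream of STX11, on its strand, UTRN, which encodes utrophin, the relative of dystrophin, had 122 and 135 CPM in WT and 126 and 115 in T4A (log2 difference −0.09, SE 0.09, adjusted p = 0.66). LTV1, a ribosome biogenesis factor 287 kb upstream, had 72.4 and 75 CPM in WT and 89.7 and 80.6 in T4A, without overlap, with a log2 difference of 0.21 (SE 0.09, adjusted p = 0.325). ENSG00000280148, named although its mean of 48.25 counts falls just short of the rule, had 1.35 and 0.885 CPM in WT and 1.61 and 1.36 in T4A, a difference of 0.41 (SE 0.35, adjusted p = 0.594) near that of STX11. The only neighbor with a larger difference than STX11 was ENSG00000225311, singled out here after its value was seen, at 1.28 (SE 0.63, adjusted p = 0.365) from a mean of 10.5 counts. The median of the 6 tested neighbors was 0.13, and that of the 4 with a mean of at least 50 counts was 0.04. STX11 lay 0.34 above the first (SD 0.05, between libraries), while single tested neighbors ranged from −0.09 to 1.28. The summed level of all listed neighbors was 250 and 272 CPM in WT and 279 and 254 in T4A, which overlap.

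At the UPP1 locus, the picture depended on which neighbors were counted. All 7 listed neighbors but 1 were tested, and 4 of those 6 had both T4A libraries above both WT libraries, against 3 of 6 at STX11 and 24.8% of all tested genes. C7orf57, the nearest gene upstream at 27.3 kb and on the same strand, had 1.43 and 1.38 CPM in WT and 1.97 and 2.6 in T4A. Its groups did not overlap, at a log2 difference of 0.70 (SE 0.29, adjusted p = 0.311). ABCA13, an ABC transporter gene 62.7 kb downstream on the same strand, had 1.23 and 0.681 CPM in WT and 3.34 and 1.27 in T4A. Here T4A replicate 1 alone was well above the rest, and the log2 difference of 1.28 (SE 0.49, adjusted p = 0.289) was 0.43 without it.

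HUS1, part of a clamp of the DNA damage checkpoint and the best counted neighbor of UPP1, 109 kb upstream, had 37 and 38.7 CPM in WT and 36 and 35.8 in T4A. It had both T4A libraries below both WT libraries by a small margin (log2 difference −0.08, SE 0.10, adjusted p = 0.728). PKD1L1, a polycystin family gene, had 9.5 and 7.06 CPM in WT and 7.89 and 7.4 in T4A, which overlap (log2 difference −0.11, SE 0.19, adjusted p = 0.799). The low-count neighbors SUN3 and PKD1L1-AS1, outside the naming rule, had log2 differences of 0.91 (SE 0.49) and 1.36 (SE 0.80) from means of 25.5 and 9.5 counts.

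The median over the 6 tested neighbors of UPP1 was 0.81, so that UPP1 lay below it, by −0.30 (SD 0.23). Over the 4 neighbors with a mean of at least 50 counts the median was 0.31 and UPP1 lay 0.20 above. Without T4A replicate 1 the median of the 6 was 0.42 and UPP1 differed from it by 0.05. The summed level of all listed neighbors, which HUS1 and PKD1L1 dominate, was 50 and 48.2 CPM in WT and 50.9 and 48 in T4A. Low counts and a positive difference went together in the whole table: the median log2 difference was 0.32 over the 6563 tested genes with a mean under 50 counts, 0.02 over the 7121 with 50 to 500, and −0.07 over the 9637 with more. In the 4 loci together, 9 of the 10 tested neighbors under 50 counts had a positive difference, against 12 of 28 with more. What part the level plays in these neighbor values was not tested.

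Around RFPL4A the tested neighbors were mixed. All 6 downstream, RFPL4AL1 and 5 NLRP genes, had positive log2 differences, and of the 16 upstream, which include many zinc finger genes and NLRP9, 12 had negative and 4 positive ones. The table lists 34 neighbors, of which 5 were at 0 and 22 were tested. The nearest is RFPL4AL1, 5.94 kb downstream on the same strand, with 1.79 and 2.59 CPM in WT and 4.44 and 3.64 in T4A. Both T4A libraries were above both WT libraries, at a log2 difference of 0.88 (SE 0.27, adjusted p = 0.237), close to that of RFPL4A itself.

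The 2 genes are near copies. Their longest annotated transcripts were identical at 1166 of 1172 aligned bases (99.5%), and of all stretches of 100 bases of the RFPL4A transcript, 52.4% occur unchanged in RFPL4AL1. A read from such a stretch fits both genes. The table's column names point to uniquely aligned reads, so how much of either gene was counted is uncertain. The RFPL4A count was 4.01 and 3.01 times that of RFPL4AL1 in WT and 3.36 and 3.32 times in T4A. The ratio in T4A lay inside its WT range, so the copies differed between conditions by about the same factor. Summed, they had 8.97 and 10.4 CPM in WT and 19.3 and 15.7 in T4A, again without overlap.

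The NLRP genes encode NOD-like receptors, several of which are known from oocytes. NLRP11, 22.2 kb downstream on the opposite strand and the best counted of them, had 8.2 and 7.71 CPM in WT and 9.86 and 11 in T4A. The groups did not overlap, at a log2 difference of 0.39 (SE 0.16, adjusted p = 0.304). NLRP9, the nearest gene upstream at 20.6 kb, had 0.153 and 0.318 CPM in WT and 0.655 and 0.521 in T4A (log2 difference 1.29, SE 0.57, adjusted p = 0.327), from a mean of 15 counts. Of the other 4 tested, which were grouped after their values were seen, NLRP5 had 1.20, NLRP8 0.85, NLRP13 0.83 and NLRP4 0.28 on the log2 scale, each with a mean under 20 counts. All 6 were positive, 4 had both T4A libraries above both WT libraries (against 24.8% of all tested genes), and in 5 of the 6 T4A replicate 1 was the highest library. Tested genes with a mean under 50 counts had a median log2 difference of 0.32 over the whole table, so little can be read from these values.

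Upstream, EPN1, an endocytosis adaptor 49.2 kb away, had 65.2 and 53.3 CPM in WT and 36.2 and 58.9 in T4A. U2AF2, a splicing factor that binds the polypyrimidine tract, had 127 and 112 CPM in WT and 86.7 and 114 in T4A. In both, T4A replicate 1 was the lowest library and T4A replicate 2 lay within the WT range, with log2 differences of −0.32 (SE 0.20, adjusted p = 0.471) and −0.25 (SE 0.13, adjusted p = 0.399). ZNF579, a zinc finger gene, was the clearest case, with 4.04 and 3.36 CPM in WT and 1.01 and 3.93 in T4A (log2 difference −0.58, SE 0.50, adjusted p = 0.593). The other named upstream genes, CCDC106, ZNF580, ZNF784, ZNF865, ZNF524, FIZ1 and SSC5D, had log2 differences from −0.26 to 0.41.

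T4A replicate 1 was the lowest of the 4 libraries in 13 of the 16 tested upstream neighbors of RFPL4A. The upstream median log2 difference was −0.24 over all libraries and 0.08 without T4A replicate 1, while the downstream median of 6 genes was 0.84 and 0.37. Over both sides the median was −0.07, and RFPL4A lay 0.92 above it (SD 0.39), or 0.61 above it without T4A replicate 1. The summed neighbor level was 284 and 248 CPM in WT and 192 and 269 in T4A, with only T4A replicate 1 outside the WT range.

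**Figure D2:**
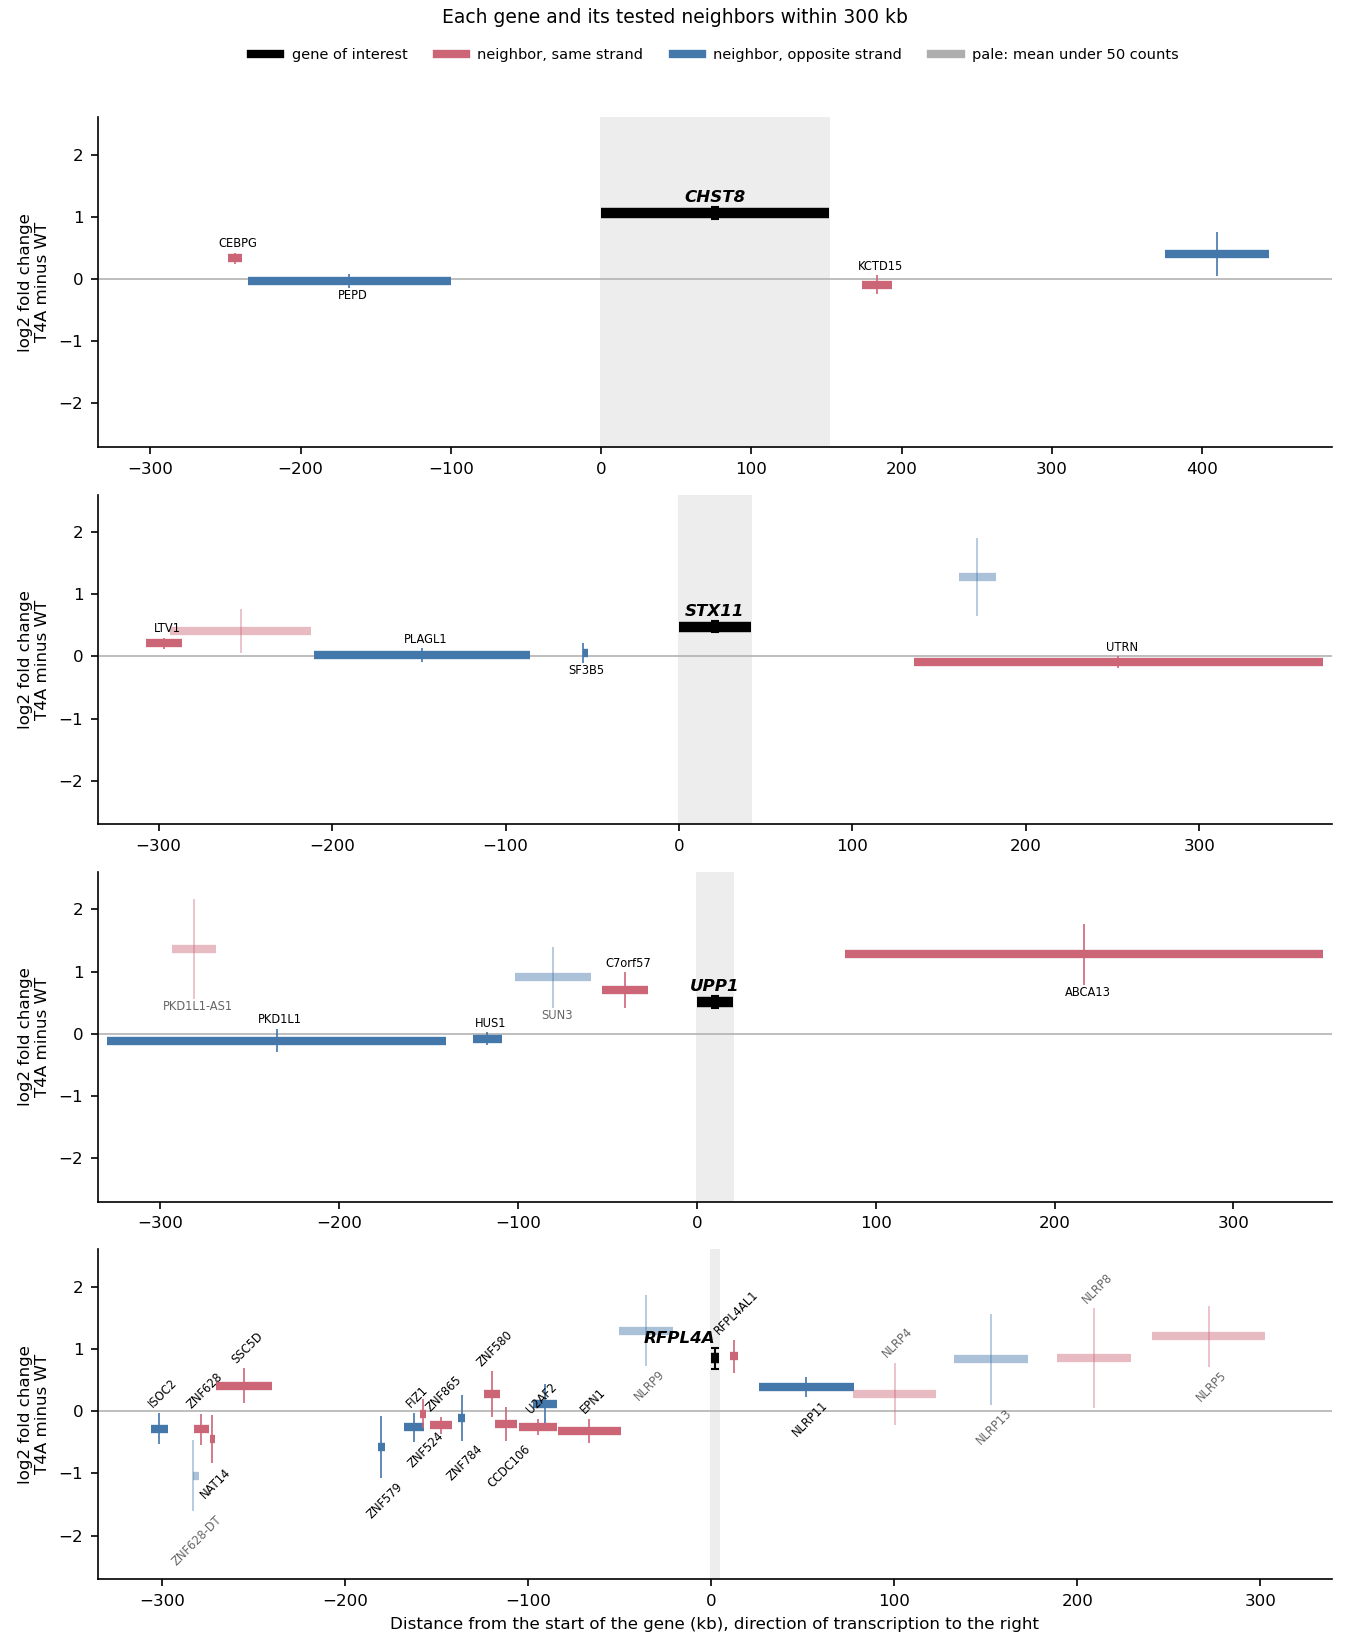
Log2 fold change, T4A minus WT (vertical axis, bars of 1 standard error), of each of the 4 genes (black) and of its tested neighbors within 300 kb, drawn as spans at their distance in kb from the start of the gene, with neighbors cut at the edge of the panel, same-strand neighbors red, opposite-strand neighbors blue and means under 50 counts pale. CHST8 stands above its 4 tested neighbors, while RFPL4A has positive downstream neighbors (median 0.84) and mostly negative upstream neighbors (median −0.24).

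Over the 4 loci, edgeR called none of the 38 tested neighbors, and DESeq2 called none of those to which it gave an adjusted p. DESeq2's own filter left many of the less counted neighbors without an adjusted p, so it could not call them. Among these were C7orf57, SUN3, ABCA13 and PKD1L1-AS1 at UPP1 and RFPL4AL1, NLRP9 and NLRP5 at RFPL4A. The lowest edgeR adjusted p was 0.224. By edgeR, 6 of the 38 neighbors had an unadjusted p below 0.05, each higher in T4A. Over all tested genes, 7.45% were higher and 8.02% lower at that edgeR threshold. DESeq2 gave 4 neighbors an unadjusted p below 0.05, for which no share over all genes is given here. Both T4A libraries were above both WT libraries in 14 of the 38 (36.8%, against 24.8% of all tested genes) and below in 3 (7.89%, against 24.7%). The median neighbor difference was 0.09, against −0.001 over all tested genes. Across all genes with at least 3 tested neighbors, 90% of the neighbor medians lay between −0.26 and 0.28. Of the 4 loci, UPP1 alone, at 0.81, lay outside that range. The comparison is unlike in number and level, since those genes had a median of 10 tested neighbors and UPP1 had 6, most of them with few counts. The UPP1 neighbor median was 0.31 at a mean of at least 50 counts and 0.42 without T4A replicate 1.

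By library, the gap between gene and neighbors had the same sign in both T4A libraries at 3 of the loci. The CHST8 level was 1.10 and 1.01 above the WT mean on the log2 scale in T4A replicates 1 and 2, against 0.11 and 0.09 for the median neighbor. For STX11 the values were 0.50 and 0.45, against 0.19 and 0.10. For RFPL4A they were 0.99 and 0.69, against −0.34 and 0.08. For UPP1 they were 0.55 and 0.46, against 0.85 and 0.41, so that the gap changed sign between the T4A libraries.

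**Figure D3:**
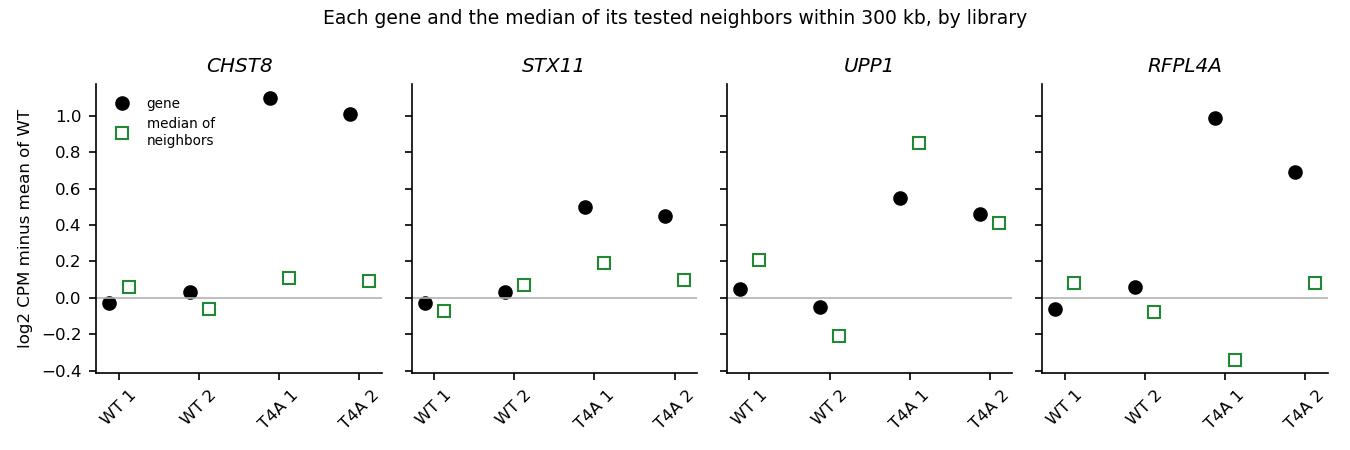
Log2 CPM minus the mean of the WT libraries (vertical axis) for each of the 4 genes (black circles) and for the median of its tested neighbors within 300 kb (green squares), in each WT and T4A library. The circles of CHST8, STX11 and RFPL4A lie above the squares in both T4A libraries, and that of UPP1 lies below it in T4A replicate 1 (0.55 against 0.85) and close to it in T4A replicate 2 (0.46 against 0.41).

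The edge of the 300 kb window did not cut through a run of genes with larger differences at CHST8, STX11 or RFPL4A. The last tested gene inside and the first outside were CEBPG at 0.33 and ENSG00000267130 at −0.39 for CHST8, LTV1 at 0.21 and ENSG00000257065 at −0.17 for STX11, and ISOC2 at −0.28 and LINC01864 at −0.35 for RFPL4A. For UPP1 they were PKD1L1-AS1 at 1.36 and LINC01447, 459 kb away, at 0.53.

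Genes of the CHST8 family had differences of both signs, and those of its donor and acceptor supply had negative ones. Of 14 other carbohydrate sulfotransferases, 12 were tested, 0 were called, 3 had both T4A libraries above both WT libraries and 7 below (against 24.8% and 24.7% of all tested genes), and the median log2 difference was −0.22. CHST11, a chondroitin sulfotransferase and the most abundant by counts, had 343 and 322 CPM in WT and 437 and 365 in T4A (log2 difference 0.27, SE 0.12, adjusted p = 0.326). CHST15 had −0.24, CHST12 −0.16, CHST1 0.42 from few counts and CHST14, of dermatan sulfate synthesis, −0.57. The 6 genes that supply the sulfate donor or the sugar acceptor were all negative, with a median of −0.28. In 4 of them both T4A libraries lay below both WT libraries (against 24.7% of all tested genes). B4GALNT3, which makes the N-acetylgalactosamine acceptor, had 95.4 and 90.7 CPM in WT and 75 and 72.3 in T4A, with a log2 difference of −0.34 (SE 0.09) and an adjusted p of 0.208 by edgeR and 0.0134 by DESeq2. PAPSS1 and PAPSS2, the synthases of the sulfate donor, had −0.18 and −0.36, and its Golgi transporter SLC35B3 −0.10. Of 4 hormone substrates, 1 was tested, CGA, the common alpha subunit, at 15.7 and 17.2 CPM in WT and 18.6 and 15.9 in T4A (log2 difference 0.07, SE 0.14).

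Among 15 other syntaxins, 14 were tested, 0 were called, and 2 lay above and 6 below without overlap (against 24.8% and 24.7% of all tested genes), with a median of −0.16. STX3, of apical and granule membranes, was the one with the largest positive difference, with 156 and 153 CPM in WT and 223 and 185 in T4A (log2 difference 0.40, SE 0.11, adjusted p = 0.218 by edgeR and 0.0066 by DESeq2, under the fold threshold). STX2 had the most negative, with 32 and 30.3 CPM in WT and 22.7 and 23.6 in T4A (−0.43, SE 0.11, adjusted p = 0.209 by edgeR and 0.0298 by DESeq2). STX17, outside the naming rule, was close to it at −0.42 (adjusted p = 0.187 by edgeR and 0.00909 by DESeq2), and both were under the fold threshold. STX18, of the endoplasmic reticulum, had −0.01 and STX6, of the trans-Golgi network, −0.25. Of 7 genes of cytotoxic granule release, 6 were tested and 0 called, with a median of −0.23. RAB27A, LYST and SNAP23 had −0.20, −0.27 and −0.25, UNC13D −0.40 from few counts, and STXBP2, the partner of STX11, 0.35 with 1.38 and 1.18 CPM in WT and 0.626 and 2.63 in T4A, where the T4A libraries lay on both sides of WT.

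Of 18 genes of pyrimidine salvage, synthesis and breakdown, 17 were tested and 0 called, with 5 above and 6 below without overlap (against 24.8% and 24.7% of all tested genes) and a median of −0.01. CDA, cytidine deaminase, which makes the substrate of UPP1, had 2.04 and 2.72 CPM in WT and 4.17 and 3.24 in T4A (log2 difference 0.63, SE 0.26, adjusted p = 0.309). The uridine kinase UCK2 had 363 and 373 CPM in WT and 397 and 348 in T4A (0.02, SE 0.11), and UMPS, of uridine synthesis, had 0.05. DPYD, which breaks down uracil, had −0.25. UCKL1, a relative of the kinases, had 9.33 and 7.94 CPM in WT and 2.35 and 7.4 in T4A, a log2 difference of −0.82 (SE 0.42, adjusted p = 0.38) that T4A replicate 1 led. Of 5 nucleoside transporters 4 were tested and 0 called. SLC29A1 and SLC29A2, the equilibrative ones, had −0.38 and −0.74, and the concentrative SLC28A1 and SLC28A3 −0.11 and 0.72.

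Of 7 other RFPL genes, 4 were tested and 0 called. Among those tested, RFPL4AL1 alone had groups that did not overlap, with both T4A libraries above both WT libraries. Of all tested genes, 24.8% lay above and 24.7% below without overlap, so little is read from this. RFPL1S and RFPL3S, antisense RNAs of family members on another chromosome, had −0.19 (SE 0.43) and −0.18 (SE 0.24). Over all 8 lists, 64 of 76 genes were tested, with 3 higher (4.69%) and 14 lower (21.9%) at an unadjusted p below 0.05, against 7.45% and 8.02% of all tested genes. Those shares were not matched to the lists for count level. In the whole table the median log2 difference was 0.32 under 50 counts and −0.07 over 500. Beside a background of 0.00429% called, 0 of 64 says little about the lists.

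**Figure D4:**
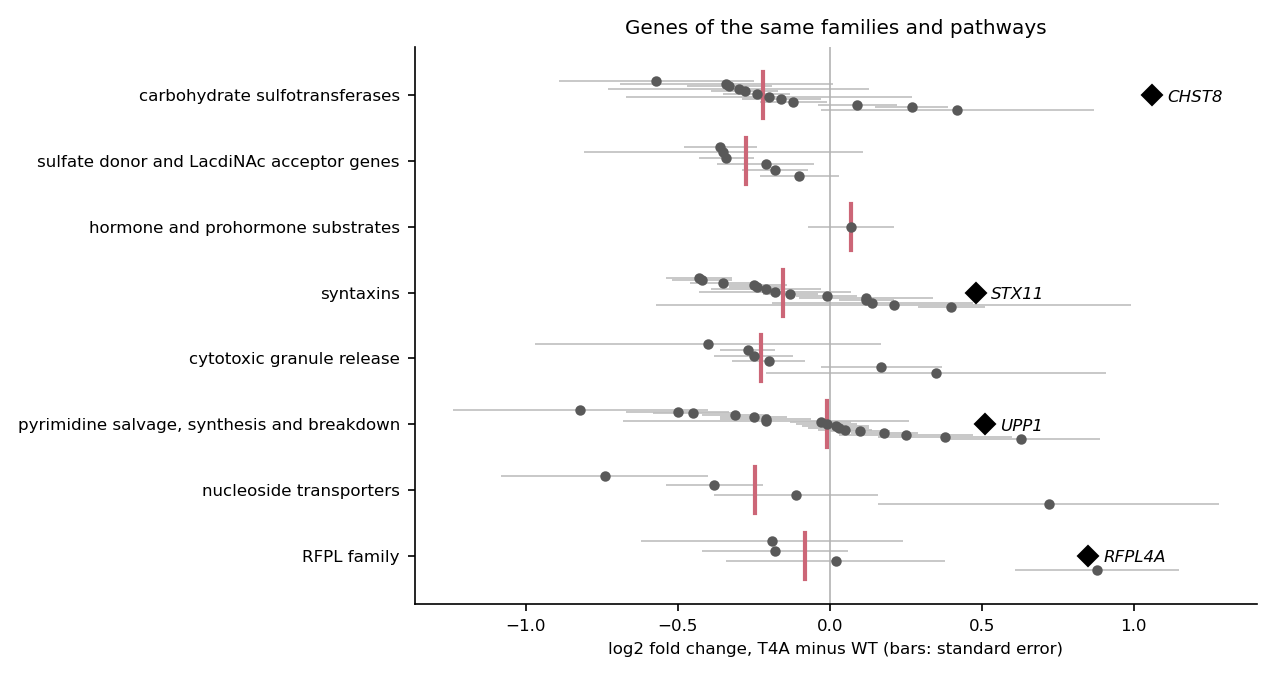
Log2 fold change, T4A minus WT (horizontal axis, bars of 1 standard error), of the tested genes of 8 family and pathway lists (gray), with the list median (red line) and the gene of interest (black diamond) drawn on its own list but not counted in it. The medians lie between −0.28 and 0.07, left of the 4 diamonds.

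The profiles of the 4 genes across the libraries differed mainly by the size of the difference they were chosen by, so no grouping is read from them. With each gene's log2 CPM taken less its own mean over the 4 libraries, STX11 and UPP1 were closest to each other (Euclidean distance 0.124), CHST8 and RFPL4A lay at 0.265, and CHST8 and STX11 were farthest apart at 0.582. Of 14898 genes with a symbol and a mean of at least 50 counts, those nearest to CHST8 were LINC01879, KLHL38 and LINC02884 (0.112 to 0.133), and those nearest to RFPL4A were LINC01060, ANXA1 and C12orf42 (0.108 to 0.112). Nearest to STX11 were THBS1, RN7SL472P and FAM222A (0.031 to 0.046), and nearest to UPP1 were PIWIL4-AS1, TAC3 and OTOF (0.0406 to 0.0467). None of the 12 is a neighbor of the 4 genes or on a list above, and with 4 libraries in 2 groups the likeness reflects the WT and T4A levels and little else.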

How the data were processed

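Per the labels, labeled RNA from 2 WT and 2 T4A samples was made into strand-specific libraries. The authors deposited raw counts per gene, with no normalization, in a featureCounts table. The submitters' processing notes list GRCh38, cutadapt 4.6, STAR 2.7.11b, Picard, FastQC and deepTools 3.5.6 without roles; the strand setting is not given in the sources used here, and the table's column names point to uniquely aligned reads. The listed length equaled the listed span for 100% of genes, so reads in introns were counted. Symbols came from GENCODE by identifier, version removed (58742 of 60708 genes matched). RefSeq (GRCh38.p14) provided the promoters. Transcript likeness was computed with Biopython 1.88.

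Library totals were 39249066 and 45605027 (WT replicates 1 and 2) and 33853507 and 33188536 (T4A replicates 1 and 2). Counts were fitted with edgeR 4.0.16 in R 4.3.3 (TMM normalization, default filter on low counts, quasi-likelihood test, no covariate, Benjamini-Hochberg adjustment over 23321 genes), with calls at an adjusted p below 0.05 and a fold change above 1.5. Normalized CPM are counts scaled to the TMM-adjusted library total (edgeR's cpm function). Standard errors came from the F statistic. The script was tested on simulated data. A neighbor is a gene whose span lies within 300 kb of that of the gene of interest, and a tested neighbor is one that passed the filter. Genes were named by rule: the nearest listed gene on each side, tested neighbors with a symbol and a mean of at least 50 counts (up to 12 per locus, nearest first), in each list the 3 genes with most counts and those with the largest rise and fall, POLR2A, and the 3 genes nearest in profile. The genes of interest and the lists were chosen with earlier results of these data known. Alternatives were DESeq2 1.42.0, other normalizations and filters, a replicate block, each library left out in turn, other windows and kinds of neighbors, calls with no fold threshold, and RFPL4A summed with RFPL4AL1.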

Additional observations from a re-analysis of the deposited data

How the results depend on the processing

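The direction of the 4 log2 differences held under every alternative run. The genes were chosen with both T4A libraries above both WT libraries, so leaving a library out could not reverse it and nothing is read from this. The 4 differences ranged over libraries left out from 1.01 to 1.09 for CHST8, 0.43 to 0.49 for STX11, 0.44 to 0.55 for UPP1 and 0.70 to 0.98 for RFPL4A. Upper quartile normalization gave 1.14 for CHST8, 0.55 for STX11 and 0.58 for UPP1, and library size alone 0.53 for STX11; these scalings moved the median of all genes by 0.077 and 0.05. The neighbor median of CHST8 was −0.06 with no filter on low counts, 0.23 with upper quartile normalization, −0.09 within 100 kb, −0.03 within 1000 kb and −0.03 with protein-coding neighbors only, and CHST8 lay 1.09, 1.14, 1.09 and 1.09 above it with no filter, within 100 kb, within 1000 kb and with coding neighbors. That of STX11 was 0.28 with no filter, 0.02 within 100 kb, −0.03 within 1000 kb and 0.04 at a mean of at least 50 counts, and STX11 lay above the median by 0.42 with at least 10 counts in every library, 0.17 with no filter, 0.45 within 100 kb, 0.51 within 1000 kb, 0.27 on its own strand, 0.42 with coding neighbors and 0.44 at a mean of at least 50 counts. For UPP1 the neighbor median was 1.28 on its own strand, 0.31 at a mean of at least 50 counts and 0.42 to 0.93 with a library left out, and UPP1 minus the median was −0.77, 0.20 and −0.38 to 0.05. For RFPL4A the median was 0.28 within 100 kb and −0.36 to 0.09 with a library left out, and RFPL4A lay above it by 0.57 and by 0.61 to 1.34. Neighbors called ranged from 0 to 8 and list genes called from 0 to 7 with a library left out, with the calls made without T4A replicate 2, where 2500 of all genes were called. The 8 neighbors were ABCA13, ISOC2, ZNF628, NAT14, ZNF579, CCDC106, EPN1 and RFPL4AL1; the lone T4A library, replicate 1, was there assumed to vary like WT. With the replicate number as a block, 0 neighbors and 1 list gene (UCKL1) were called and 433 of all genes; deviations of same-numbered libraries correlated at 0.00498, so the numbers were not taken as pairs. The cause of these moves was not tested. Depth limits the neighbors under 50 counts most.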
